A study of Sus scrofa with 10 samples.

Results

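OLIG1, OLIG2, SOX10 and NKX2-2 are transcription factors of the oligodendrocyte lineage, the cells that make the myelin of the brain. The 4 genes were chosen by name, from 22452 genes counted in the developing and adult medial entorhinal cortex (MEC) of the pig, Sus scrofa. Their transcripts were counted in every cell as UMIs, the molecular tags that mark single captured molecules. The 28229 cells came from 10 libraries of brains, with no genetic modification or treatment named in the labels. The fetuses were Danish Landrace/Yorkshire and Duroc crosses from a production farm, and the adult brains came from another source by the study's methods, although the labels give the farm for all. The labels call both libraries after birth adult, while other parts of the study give them an age in postnatal days. Whole cells dissociated with papain from fresh tissue gave 1 library at embryonic day (E) 50 (E50_1, from 3 pooled brains) and 3 libraries at E60 (E60_1 and E60_2 from 1 brain each, E60_3 from 2). Whole cells also gave 3 libraries at E70 (E70_1 from 2 brains, E70_2 and E70_3 from 1 each) and 1 library from an adult brain (Adult_1). Nuclei of snap-frozen tissue, sorted with the DNA stain 7-AAD, gave 1 library at E70 (E70_nc) and 1 from the adult (Adult_nc), each from 1 brain. Replicates existed for whole cells of E60 and of E70 alone, so no other difference was tested.

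Oligodendrocytes arise from precursors that divide and migrate, stop dividing as they commit to differentiate, and then wrap axons in myelin. OLIG1 and OLIG2 are basic helix-loop-helix factors, and OLIG2 is needed for the precursors to be specified from neural progenitors under hedgehog signalling. SOX10, a member of the SOX family, acts through the lineage and drives myelin genes with its target MYRF, while NKX2-2 is a homeodomain factor known for the step from precursor to differentiation.

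OLIG2 and OLIG1 are neighbours on chromosome 13 of the pig genome. By the RefSeq annotation of Sscrofa11.1, OLIG2 (ENSSSCG00000012039 in the count tables) lies at chr13:196596838-196602197 and OLIG1 (ENSSSCG00000012040) at chr13:196644065-196646406, both on the plus strand and 41867 bases apart. OLIG1 has 1 exon and no intron, so that an unspliced transcript gives it no extra sequence to capture, while OLIG2 has 2 exons. SOX10 (ENSSSCG00000039315) lies on the plus strand at chr5:9890439-9901746, has 5 exons, and 73.1% of its length is intron. NKX2-2 (ENSSSCG00000040017) lies on the minus strand at chr17:29275656-29279572 and has 2 exons. The counting by the authors took in introns.

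OLIG1, OLIG2 and SOX10 have relatives with a nearly identical DNA binding domain, and a read that could come from either gene is not assigned. To show how alike they are, 60 coding bases of these genes are printed 5′ to 3′ from the Sscrofa11.1 sequence, with capitals where a relative differs from the first line of its family. OLIG1 is at chr13:196644504-196644563 (plus strand), OLIG2 at chr13:196600155-196600214 (plus), OLIG3 at chr1:26800929-26800988, SOX10 at chr5:9892639-9892698 (plus) and SOX9 at chr12:8646947-8647006 (minus).
OLIG1: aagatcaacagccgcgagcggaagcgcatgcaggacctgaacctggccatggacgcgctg
OLIG2: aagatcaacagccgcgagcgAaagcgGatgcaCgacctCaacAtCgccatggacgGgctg
OLIG3: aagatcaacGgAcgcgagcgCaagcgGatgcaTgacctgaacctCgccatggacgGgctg
SOX10: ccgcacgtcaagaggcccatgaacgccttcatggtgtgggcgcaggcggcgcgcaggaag
SOX9: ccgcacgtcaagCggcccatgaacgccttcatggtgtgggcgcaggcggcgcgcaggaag

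In these 60 bases OLIG2 and OLIG3 each differed from OLIG1 at 7 positions, and SOX9 from SOX10 at 1. Over the whole transcripts, the longest run of identical bases was 21 between OLIG1 and OLIG2, 31 between OLIG2 and OLIG3 and 52 between SOX10 and SOX9. All of these runs were shorter than the 57 bases of a read.

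OLIG2, the factor that specifies the lineage, was almost absent from the counts. It had 14 UMIs in 13 cells of 5 libraries (E50_1, E60_2, E70_2, E70_3 and Adult_1), and no cell held more than 2. Of 19321 genes with any UMI, 18011 (93.2%) had more UMIs than OLIG2. Of the 13 cells, 5 were oligodendroglia-like and 5 were astrocyte and radial glia-like, and 11 also held OLIG1. OLIG1, by contrast, had 10275 UMIs in 2962 cells, SOX10 had 2150 UMIs and NKX2-2 had 1339 UMIs. OLIG2 was therefore at or below the level of 3 UMIs in most groups of cells, and its absence there was not separable from non-detection. The gene models used for the counts (Ensembl) were not compared with the RefSeq model given above, so that reads beyond the end of the counted OLIG2 model could not be looked for.

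The RNA of the other 3 genes varied widely between whole libraries, in which fewer cells of the lineage and less RNA per cell cannot be told apart. OLIG1, which acts in both precursors and oligodendrocytes, was at 85.9 CPM, which relates a gene's UMIs to all UMIs of the same cells, in E50_1. It was at 45.9, 25.0 and 13.5 CPM in E60_1, E60_2 and E60_3, and at 16.5, 31.2 and 20.6 CPM in E70_1, E70_2 and E70_3. It was highest in the adult whole cells, with 202 CPM, against 38.5 CPM in the adult nuclei and 2.59 CPM in the E70 nuclei. Both nuclei libraries were thus below the whole cells of their stage for OLIG1. SOX10, which is active at every stage of the lineage, was at 8.48 CPM in E50_1, at 6.01 to 7.87 CPM in the E60 libraries and at 8.87 to 16.8 CPM in the E70 whole cells. It was at 12.6 CPM in the E70 nuclei, 46.6 CPM in Adult_1 and 51.4 CPM in Adult_nc. The adult libraries therefore stood above all fetal libraries for SOX10, and in the adult the nuclei were not below the whole cells. NKX2-2 was at 5.56 CPM in E50_1, at 16.1, 3.70 and 1.01 CPM in the E60 libraries and at 0.792, 2.73 and 3.02 CPM in the E70 whole cells. It was at 12.5 CPM in Adult_1, 2.14 CPM in Adult_nc and 0.324 CPM in E70_nc. E60_1 and Adult_1 were the high libraries for NKX2-2, with a wide spread among the 3 libraries of E60.

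**Figure D1:**
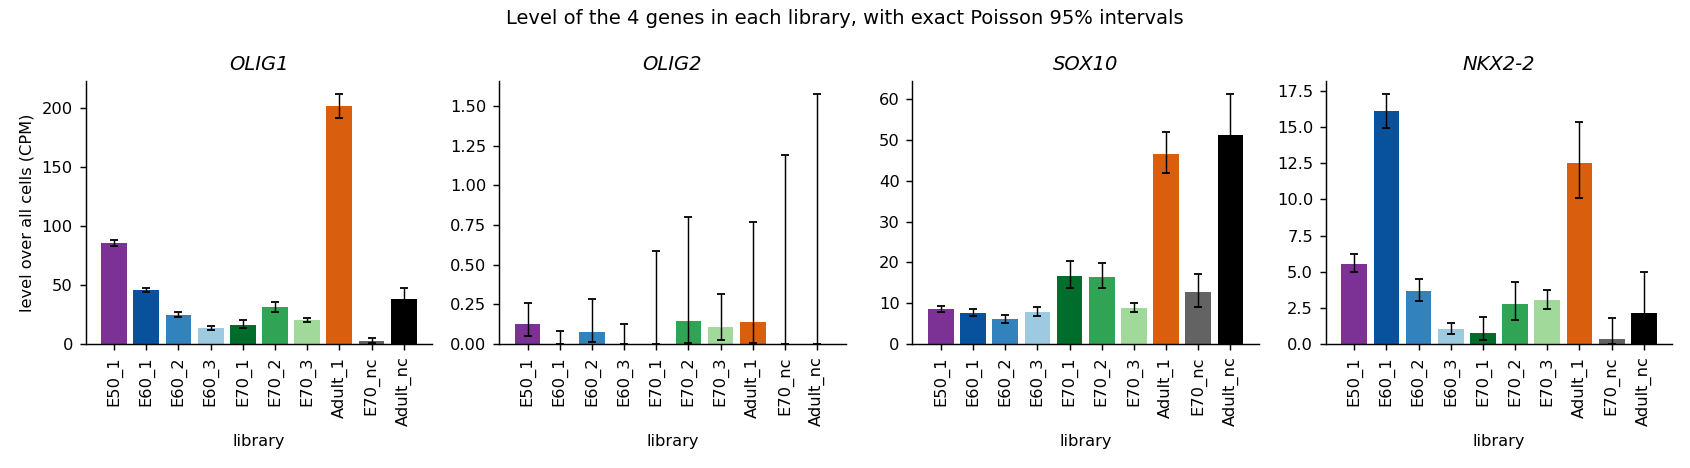
Level of each of the 4 genes in each of the 10 libraries, as UMIs of the gene scaled to those of the library (CPM), with exact Poisson 95% intervals as bars. OLIG1 ran from 2.59 CPM in the E70 nuclei to 202 CPM in the adult whole cells, and OLIG2 was at 0.144 CPM or less in every library.

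The make-up of the libraries differed as well. Oligodendroglia-like cells were 2.40% of the cells in E50_1, 5.51%, 3.19% and 0.556% in the 3 E60 libraries and 2.03%, 1.78% and 2.40% in the E70 whole cells. They were 10.7% of the E70 nuclei, 26.9% of the adult whole cells and 76.0% of the adult nuclei. Of the 92 such E70 nuclei, 69 belonged to a group led by the astrocyte genes GJA1 and AQP4, described below. The other 23, named precursor-like below, were 2.68% of that library. In whole cells the share of oligodendroglia-like cells averaged 3.08% ± 2.48 at E60 and 2.07% ± 0.313 at E70 (SD, n = 3 libraries each). E60_1 and E60_2 stood apart in other cells too, since each held 1 excitatory neuron-like cell against 1365 in E60_3, and they held 750 and 472 erythroid-like cells. Total UMIs per library lay between 2336865 (Adult_nc) and 55755512 (E50_1), with a median of 690 to 9403 UMIs per cell. Of 27777 barcodes, 449 occurred in more than 1 library, but only 3 of the 3031 barcodes of the oligodendroglia-like cells did.

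The 3034 oligodendroglia-like cells (10.7% of all) were divided again by clustering, with the 4 genes and all marker genes kept out of the genes that formed the clusters. Stages could then be named by their markers. Precursor-like cells (660) carried PDGFRA, the growth factor receptor of precursors, which reached 205 CPM in those of E60_1. Committed-like cells (89) carried BCAS1 and GPR17, genes of newly forming oligodendrocytes, with 5756 and 1054 CPM in E60_1 against 299 and 250 CPM in the precursor-like cells of that library. Mature-like cells (1809) carried all 11 mature marker genes in the files, among them MOBP, a myelin protein gene that was at 667 CPM in E60_1 against 0 CPM in the committed-like cells. Myelin genes as a whole did not separate these groups, since the 11 mature markers summed to 17265 CPM in the committed-like and 11083 CPM in the mature-like cells of E60_1. They were also above the committed-like cells' own 6 markers, which summed to 13213 CPM. The committed-like cells of E60_2 were alike, with 15818 and 12861 CPM. Another 476 oligodendroglia-like cells fitted none of these names, among them 241 cells led by the astrocyte genes GJA1 and AQP4. A further 160 of them, 159 from Adult_nc, had CALCR, DNAJC5B and LY75 among their leading genes, as had a microglia-like cluster. In these 160 cells 0 of the 11 mature markers passed the rule for naming.

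Most fetal libraries held few cells past the precursor stage. The committed-like cells came mainly from E60_1 (67 cells), with 11 in E60_2 and 9 in E50_1, and the mature-like cells from Adult_nc (1567), Adult_1 (197) and E60_1 (34). The labels were not equally clear in all libraries. The mature-like cells of E60_1 also carried AQP4, the water channel of astrocytes, at 893 CPM against 41.4 CPM in the committed-like cells, and their astrocyte marker genes summed to 3425 CPM against 549 CPM in Adult_1. Hemoglobin and other erythroid marker genes summed to 12573 CPM in the committed-like cells of E60_1 and to 31695 CPM in those of E60_2. The part of these RNAs in the values below was not tested.

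OLIG1 was high in precursor-like cells, near background in the committed-like cells of E60 and high in mature-like whole cells of the adult. This last level comes from Adult_1, which had 1 precursor-like and 0 committed-like cells, so it can be compared with earlier stages only across libraries. In precursor-like whole cells it was at 2426 CPM in E50_1 (exact Poisson 95% CI 2321 to 2535, 104 cells), at 473, 271 and 313 CPM in E60_1, E60_2 and E60_3 (220, 29 and 12 cells) and at 324 CPM in E70_3 (68 cells). These intervals, like all others on counts and shares of cells, cover counting error only. E70_1 and E70_2 had 6 and 4 precursor-like cells, at 314 and 320 CPM. The level was therefore similar in the libraries of E60 and E70, and E50_1 lay above all of them. The ratio of E50_1 to the others ran from 5.13 (4.61 to 5.72, against E60_1) to 8.95 (6.47 to 12.7, against E60_2), but E50 had 1 library and no replicate check. The median was 7508 UMIs per precursor-like cell in E50_1, between 3552 and 7540 in the other 4 libraries of whole cells with at least 10 such cells, and the part of depth was not tested.

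In the committed-like cells of E60_1, OLIG1 was at 27.7 CPM (11.9 to 54.5), from 8 UMIs in 4 of 67 cells. This was 17.1-fold lower than in the precursor-like cells of the same library (8.60 to 39.9). It was also close to the 27.2 CPM of the microglia-like cells of that library, which should lack the gene, with a ratio of 1.02 (0.432 to 2.05). OLIG1 in these committed-like cells was thus not distinguishable from the background. In E60_2 no UMI of OLIG1 was found in 11 committed-like cells. With the committed-like cells set to 3 UMIs, the precursor-like cells were 4.55-fold higher, with a lower limit of 3.52. E50_1 differed in that its 9 committed-like cells held OLIG1 at 506 CPM, against 8.63 CPM in its microglia-like cells. The drop from precursor-like to committed-like cells was 4.80-fold there (3.55 to 6.65).

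In mature-like cells OLIG1 was at 776 CPM in Adult_1, where all 197 cells held it, and at 151 CPM in E60_1, where 32.4% of 34 cells did. The 3 mature-like cells of E50_1 were at 250 CPM and the 8 of E60_2 at 19.2 CPM. Adult_1 was 5.16-fold above E60_1 (3.55 to 7.79) and its own microglia-like cells were at 7.54 CPM. In E50_1, E60_1, E60_2 and Adult_nc, which held both stages, OLIG1 was lower in mature-like than in precursor-like cells. In Adult_nc it was at 34.8 against 163 CPM.

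SOX10 was higher in committed-like than in precursor-like cells, the opposite order to OLIG1, clearly so in E60_1 alone. Precursor-like cells had 92.1 CPM in E50_1, 61.2, 51.3 and 73.6 CPM in the 3 E60 libraries and 54.0 CPM in E70_3. The libraries of whole cells lay close together for this gene, and E50_1 was between 1.25 and 1.80-fold above the others. Committed-like cells had 159 CPM in E60_1, with SOX10 in 55.2% of 67 cells, and 99.2 CPM in E60_2. The level in E60_1 was 2.60-fold that of its precursor-like cells (1.71 to 3.93) and 35.1-fold that of its microglia-like cells (21.4 to 58.7). In E60_2 and E50_1 the committed-like cells were 1.93 and 1.53-fold above the precursor-like cells, with intervals that reached below 1 (0.484 to 7.08 and 0.758 to 2.83). Mature-like cells had 145 CPM in Adult_1, with SOX10 in 68.5% of cells, and 86.0 CPM in E60_1. The 8 mature-like cells of E60_2 had 192 CPM, 1.94-fold its committed-like cells (0.604 to 7.23), whereas in E60_1 mature-like cells were lower than committed-like cells. SOX10 was thus found in all 3 stages.

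NKX2-2 was highest in the committed-like cells of E60_1 and E50_1. Precursor-like cells had 89.7 CPM in E50_1, 99.3, 66.0 and 36.8 CPM in the 3 E60 libraries and 71.2 CPM in E70_3, with E50_1 inside the range of the others. Committed-like cells had 232 CPM in E60_1, where 55.2% of cells held the gene, 179 CPM in E60_2, where 63.6% of 11 cells did, and 329 CPM in E50_1, where all 9 cells did. Their level was 2.33-fold that of the precursor-like cells in E60_1 (1.67 to 3.25), 3.67-fold in E50_1 (2.29 to 5.74) and 2.71-fold in E60_2 (0.952 to 7.70). Committed-like cells were above precursor-like cells in all 3 libraries, and the interval for E60_2 reached below 1. The 8 mature-like cells of E60_2 were higher still, at 269 CPM, 1.51-fold the committed-like cells (0.608 to 3.95). Mature-like cells had 140 CPM in E60_1 and 44.9 CPM in Adult_1, so that E60_1 was 3.11-fold above the adult (1.92 to 4.90). The order of these mature-like cells was the reverse of that for OLIG1, which was higher in the adult. Microglia-like cells of whole cell libraries had at most 3.86 CPM of NKX2-2.

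**Figure D2:**
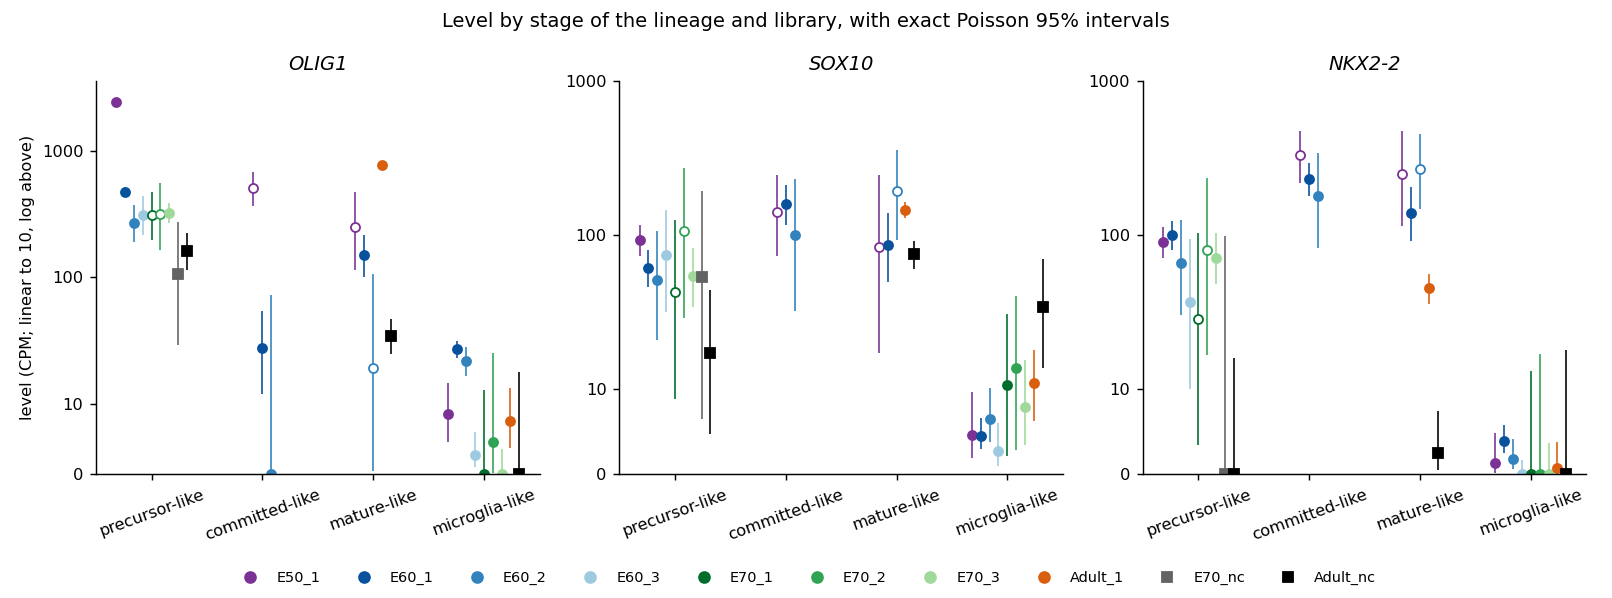
Level of OLIG1, SOX10 and NKX2-2 (CPM, on an axis linear up to 10 and logarithmic above) in precursor-like, committed-like, mature-like and, as background, microglia-like cells of each library, with squares for nuclei, with open symbols for groups of 3 to 9 cells and the exact Poisson 95% intervals as bars. In E60_1, OLIG1 was at 473, 27.7 and 151 CPM in the 3 stages of the lineage, while NKX2-2 was at 99.3, 232 and 140 CPM.

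To compare shares of cells across depths, every cell was thinned at random to 1000 UMIs. In E60_1, OLIG1 was then found in 39.1% of precursor-like, 1.49% of committed-like and 17.6% of mature-like cells. SOX10 was found in 5%, 14.9% and 2.94% of them, and NKX2-2 in 5.45%, 23.9% and 14.7%. The order of the stages was the same as that of the CPM, except that SOX10 was less often found in mature-like than in precursor-like cells. Microglia-like cells of E60_1, thinned alike, had the 3 genes in 1.39%, 0.260% and 0.0868% of cells. Averaged over the libraries with at least 10 cells of a stage, whole cells and nuclei together, OLIG1 was found in 33.3% ± 27.6 of precursor-like cells (SD, n = 7 libraries), 0.746% ± 1.06 of committed-like cells (n = 2) and 26.5% ± 28.6 of mature-like cells (n = 3). SOX10 was found in 4.45% ± 3.00, 7.46% ± 10.6 and 9.27% ± 7.65, and NKX2-2 in 2.99% ± 3.96, 25.6% ± 2.40 and 7.07% ± 7.19. OLIG2 was in none of the thinned cells of these 3 stages. The spread between libraries was thus as large as most differences between the stages, apart from the high share of NKX2-2 in committed-like cells, which rests on 2 libraries.

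Single cells seldom held all 3 genes, even without thinning. In the 104 precursor-like cells of E50_1, all of which held OLIG1, 23 held SOX10 and NKX2-2 as well (22.1%). This equals the product of the shares of cells with SOX10 and with NKX2-2 (22.1%). In E60_1, 11 of 220 precursor-like cells (5%) held all 3 genes and 30 (13.6%) held none of them. Of the 67 committed-like cells of E60_1, none held all 3, and 17 (25.4%) held SOX10 with NKX2-2, against a product of 30.5%. The mature-like cells of Adult_1 held all 3 in 46 of 197 cells (23.4%). The mature-like cells of E60_1 held SOX10 with NKX2-2 in 7 of 34 cells (20.6%, against a product of 12.1%), and the committed-like cells of E60_2 in 1 of 11 (9.09%, against 17.4%). The share of cells with both was thus equal to the product, below it or above it, depending on the group.

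Nuclei gave less OLIG1 and NKX2-2 than whole cells. Mature-like nuclei of the adult had OLIG1 at 34.8 CPM, against 776 CPM in the mature-like whole cells, a 22.3-fold difference (16.4 to 31.3). For NKX2-2 the levels were 2.54 and 44.9 CPM, a 17.7-fold difference (5.83 to 87.4). For SOX10 they were 74.6 and 145 CPM, a 1.95-fold difference (1.52 to 2.51). The gap between the preparations was thus smallest for SOX10, whose length is mostly intron, and large for OLIG1, which has no intron, and for NKX2-2, with 23.5%, but each preparation had 1 adult library, and library, animal and preparation cannot be told apart. Of the 1567 mature-like nuclei, 1447 (92.3%) held none of the 3 genes, at a median of 648 UMIs per nucleus.

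Within the adult nuclei the stages still differed. OLIG1 was at 163 CPM in 193 precursor-like nuclei, 4.68-fold above the mature-like nuclei (2.93 to 7.46). SOX10 had the reverse order, with 17.1 CPM in precursor-like nuclei and 74.6 CPM in mature-like nuclei, a 4.36-fold difference (1.64 to 16.3). Microglia-like nuclei of this library had SOX10 at 33.9 CPM, so that the level in the precursor-like nuclei was not above background. At E70, 23 precursor-like nuclei had OLIG1 at 107 CPM, 3.04-fold below the whole cells of E70_3 (1.16 to 11.3), and SOX10 at 53.4 CPM from 2 UMIs. NKX2-2 had no UMI in the precursor-like nuclei of either library.

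A large part of the OLIG1 and NKX2-2 RNA lay outside the oligodendroglia-like cells. Astrocyte and radial glia-like cells held 36.5% of all OLIG1 UMIs, with 78.3% in E70_2, 65.7% in E70_3 and 56.5% in E60_3. Their level was 276 CPM in E50_1 (264 to 289), 52.2, 46.9 and 68.1 CPM in the E60 libraries and 105, 160 and 73.8 CPM in the E70 whole cells. E50_1 was thus the highest library in these cells too, as it was in precursor-like cells. In Adult_1 they had 21.3 CPM, and in 45 cells of E70_nc no UMI was found.

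**Figure D3:**
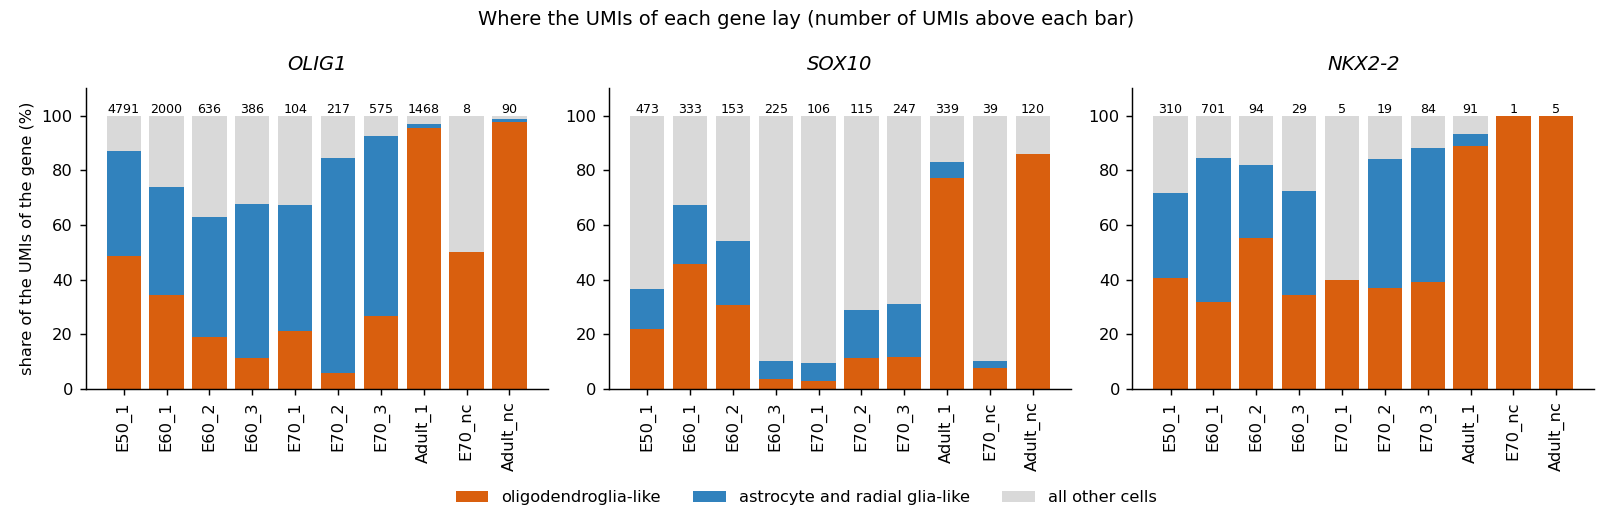
Share of the UMIs of OLIG1, SOX10 and NKX2-2 in each library that lay in oligodendroglia-like, astrocyte and radial glia-like and other cells (percent), with the number of UMIs above each bar. Oligodendroglia-like cells held 77.3% of the SOX10 UMIs of Adult_1 but 3.56% of those of E60_3.

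Among these glia the level was highest in a cluster of 882 cells led by KCNIP3, DLL3 and EGFR, with OLIG1 at 278 CPM and in 45.1% of cells. EGFR is a growth factor receptor of dividing glial progenitors and DLL3 is a Notch ligand. By library its OLIG1 was at 1014 CPM in E50_1, 431, 258 and 160 CPM in the E60 libraries and 121, 184 and 98.6 CPM in the E70 whole cells. The level in this cluster therefore was lower in each E70 library than in E60_1 and E60_2, and above E60_3 in E70_2 alone. The 398 cells with OLIG1 and the 484 without were then compared for a few genes that were chosen after their values were seen. DLL3 was at 75.2 CPM with OLIG1 and 12.7 CPM without, and was higher with OLIG1 in 7 of 7 libraries. EGFR was at 332 and 168 CPM, and was higher in 6 of 7. AQP4, the astrocyte water channel, was at 186 and 934 CPM, and was lower with OLIG1 in 6 of 7. The cells of this cluster with OLIG1 thus had less of the astrocyte gene in all libraries but E60_2. SOX10 was at 15.6 and 8.45 CPM, and was higher with OLIG1 in 5 of 7 libraries and lower in 1. NKX2-2 was at 14.9 and 4.79 CPM, and was higher with OLIG1 in 6 of 7 and lower in 0. Both stayed low in either group of cells, and several entries of these tallies rest on few UMIs. Cells with OLIG1 in E60_1, E60_2 and E60_3 held 3, 1 and 3 UMIs of NKX2-2 and 3, 0 and 3 of SOX10. Those of E50_1 and E70_3 held 14 and 20 UMIs of NKX2-2 and 12 and 14 of SOX10. Cells with more UMIs are more likely to hold any gene. The median was 7067.5 UMIs per cell with OLIG1 and 6977.5 without. By library this median was lower with OLIG1 in E50_1, E60_3 and E70_3, and higher in the other fetal whole cell libraries. The part of depth in these differences was not tested.

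**Figure D4:**
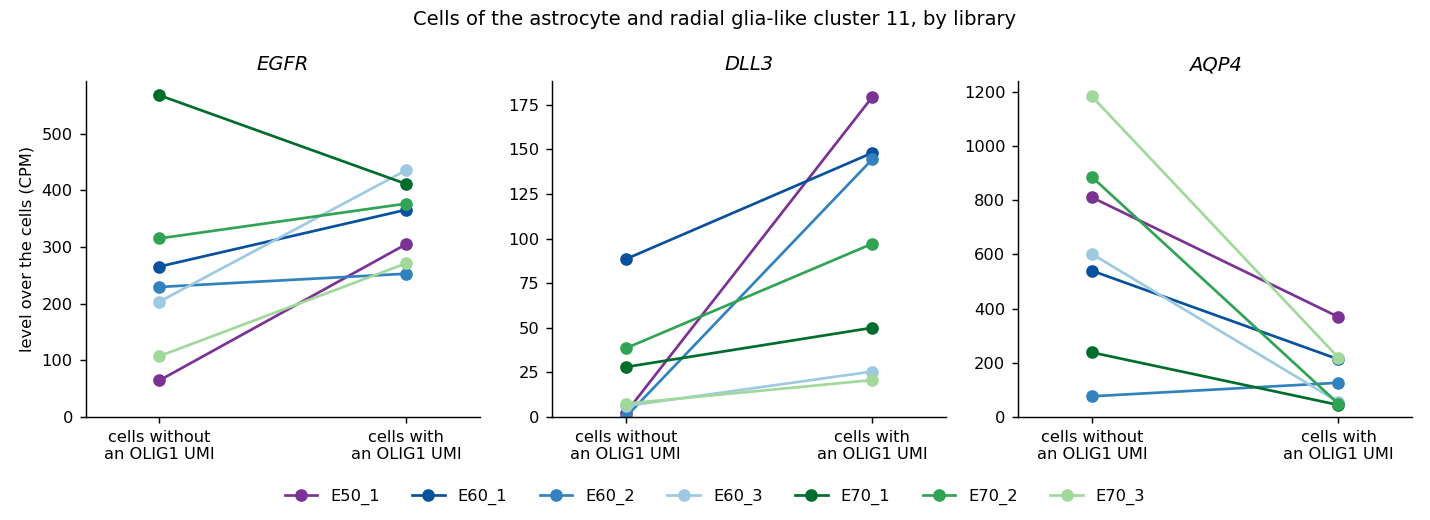
Level (CPM) of EGFR, DLL3 and AQP4 in the cells without and with a UMI of OLIG1 in the astrocyte and radial glia-like cluster led by KCNIP3, DLL3 and EGFR (cluster 11), with 1 line per library of fetal whole cells. DLL3 was higher in the cells with OLIG1 in 7 of 7 libraries, and AQP4 was lower in 6 of 7.

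NKX2-2 in E60_1 lay mostly outside the lineage, with 52.4% of its UMIs in astrocyte and radial glia-like cells. A cluster of 928 such cells, 902 of them from E60_1, held 164 UMIs (25.0 CPM). It was led by genes of motile cilia such as RSPH1, which mark ependymal cells, and had SOX10 at 7.01 CPM. Over all libraries, astrocyte and radial glia-like cells held 41.3% of the UMIs of NKX2-2.

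SOX10 was found at a low level in many classes. Outside the oligodendroglia-like cells it lay between 4.27 CPM in E60_2 and 24.7 CPM in Adult_nc, where OLIG1 was at 20.7 and 2.91 CPM. Excitatory neuron-like cells had SOX10 at 9.66 CPM in E60_3 (7.91 to 11.7), 14.1 CPM in E70_2 (10.3 to 18.8) and 7.31 CPM in E70_3 (5.96 to 8.88). In the same cells OLIG1 was at 0.273, 0.625 and 0.215 CPM. Oligodendroglia-like cells held between 2.83% (E70_1) and 45.6% (E60_1) of the SOX10 UMIs of the fetal libraries, with 30.7% in E60_2 and 3.56% in E60_3, against 77.3% in Adult_1 and 85.8% in Adult_nc. More than 50% of the SOX10 UMIs of each fetal library therefore lay in other cells, narrowly so in E60_1. POLR2F, a subunit of RNA polymerase II, lies 3612 bases from SOX10 on the other strand, and no part of it in these counts was tested.

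The 3 libraries of E60 and the 3 of E70 whole cells were compared to ask whether the genes changed between these stages. In whole libraries, edgeR's quasi-likelihood test with Benjamini-Hochberg adjustment called 0 of 16743 genes (0%) at an adjusted p under 0.05, and none of the 4 genes. At an unadjusted p under 0.05 there were 4916 genes, and DESeq2 called 2833. SOX10 did not overlap between the stages, as held for 26.3% of the genes tested (14.9% with E70 higher), with 7.18 CPM ± 1.01 at E60 and 14.1 CPM ± 4.50 at E70 (SD, n = 3 each). Its log2 fold change of 0.77 (SE 0.37) did not pass, with an adjusted p of 0.194 by edgeR. OLIG1 was at 28.1 CPM ± 16.4 and 22.8 CPM ± 7.60, with a log2 fold change of -0.52 (SE 0.52, adjusted p = 0.502). NKX2-2 was at 6.93 CPM ± 8.04 and 2.18 CPM ± 1.21, with a log2 fold change of -1.85 (SE 1.00, adjusted p = 0.239). The libraries of the 2 stages overlapped for both of these genes, and the high level of E60_1 gave most of the E60 mean of NKX2-2. OLIG2 had too few UMIs to be tested.

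The study's list of libraries gave 2 pairs of them a shared number that was read as a sequencing pool, and these pairs went opposite ways for OLIG1 and NKX2-2. Between E60_3 and E70_3, the difference of log2(CPM + 1), E70 minus E60, was 0.58 for OLIG1 and 1.00 for NKX2-2. Between E60_1 and E70_1 it was -1.42 and -3.25. For SOX10 both differences were positive, at 0.15 and 1.04.

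In the oligodendroglia-like cells alone, 0 of 6410 genes (0%) were called by edgeR, with 957 at an unadjusted p under 0.05 and 194 called by DESeq2. OLIG1 was at 344, 200 and 275 CPM in the E60 libraries and at 229, 134 and 313 CPM in those of E70, with a log2 fold change of -0.18 (SE 0.37, adjusted p = 0.850). SOX10 was at 76.1, 77.9 and 51.2 CPM against 31.3, 134 and 59.0 CPM, with a log2 fold change of 0.07 (SE 0.48, adjusted p = 0.966). NKX2-2 was at 112, 86.2 and 64.0 CPM against 20.9, 72.0 and 67.2 CPM, with a log2 fold change of -0.62 (SE 0.43, adjusted p = 0.502). All 3 genes overlapped between the stages, while 19.1% of the genes tested did not (8.52% with E70 higher, 10.6% with E70 lower), and the standard errors left room for changes of the size of the estimates in either direction for OLIG1 and SOX10. The sums rest on 450, 111 and 15 cells at E60 and on 10, 11 and 75 cells at E70, of which 4 in E70_1 and 6 in E70_2 belonged to the group led by GJA1 and AQP4. In precursor-like cells, E70_3 was the only E70 library with at least 10 cells, so no test was made, and the log2 ratio of E70 to E60 was -0.12 for OLIG1, -0.20 for SOX10 and 0.08 for NKX2-2.

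**Figure D5:**
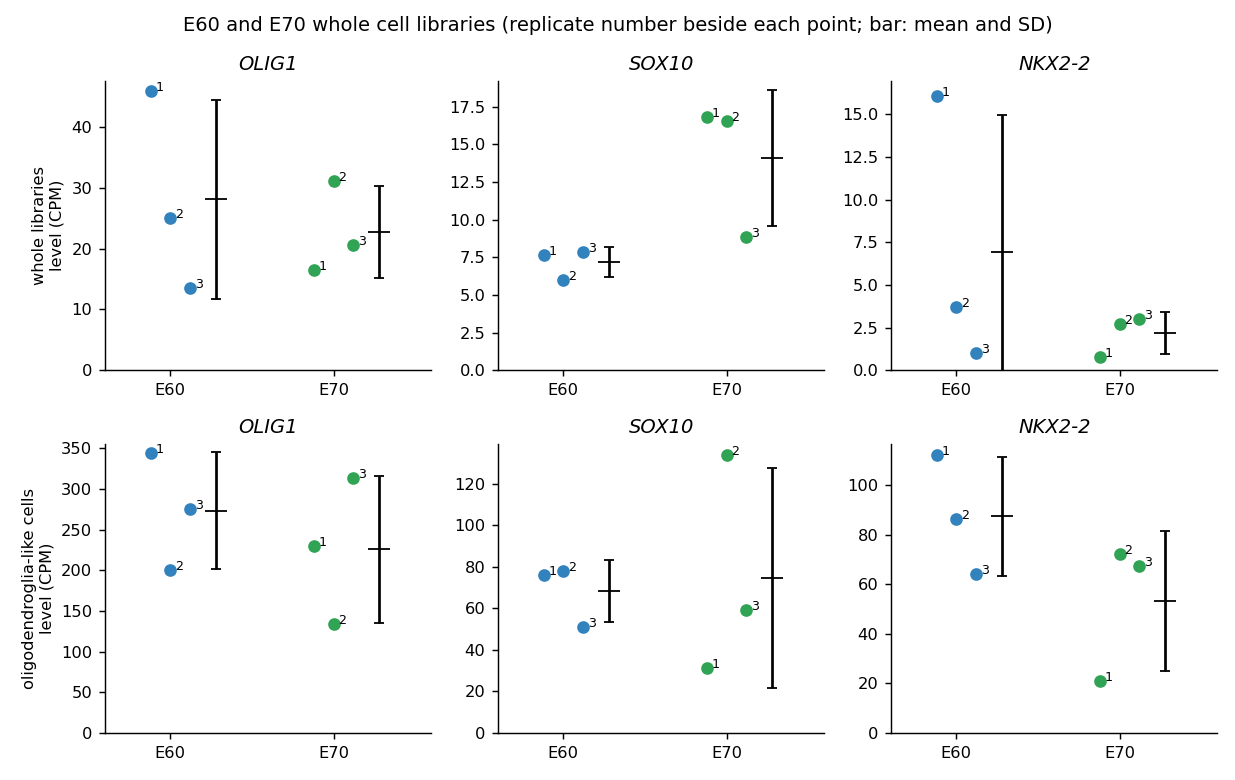
OLIG1, SOX10 and NKX2-2 in the 3 libraries each of E60 and E70 whole cells (CPM), in whole libraries and in the oligodendroglia-like cells, with 1 point per library labelled by its replicate number, a line at the mean and the SD as error bar, cut off at 0. SOX10 in whole libraries was at 6.01 to 7.87 CPM at E60 and 8.87 to 16.8 CPM at E70, and every other panel overlapped.

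Of 29 other transcription factors of the lineage, 25 were tested in whole libraries and 18 in oligodendroglia-like cells. None was called in either, and 9 and 1 had an unadjusted p under 0.05. Their median log2 fold change was -0.41 in whole libraries, against -0.06 for all genes tested, and -0.08 in oligodendroglia-like cells, against -0.03. Of 14 hedgehog pathway genes, 11 and 8 were tested and none was called. In whole libraries 5 of the 11 had an unadjusted p under 0.05, against 4916 of all 16743 genes, and their median log2 fold change was 0.04. In oligodendroglia-like cells it was 4 of the 8, against 957 of all 6410 genes, and their median was 0.55, against -0.03. Of these 4, the edgeR estimate was positive for CDON (3.45, SE 0.62, adjusted p = 0.098), GLI2 (1.74, SE 0.59, adjusted p = 0.226) and HHIP (1.14, SE 0.38, adjusted p = 0.226). It was negative for PTCH1, the hedgehog receptor, at -0.98 (SE 0.36, adjusted p = 0.265). SHH, the ligand, had 0 UMIs in the oligodendroglia-like cells.

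The 4 factors of this list with the highest level in oligodendroglia-like cells were TCF12, TCF4, SOX6 and ZEB2. TCF12 and TCF4 are the E proteins that pair with OLIG factors, and had 775 and 1012 CPM in precursor-like whole cells and 601 and 627 CPM in committed-like ones. SOX6, a SOX factor that holds back differentiation, had 1217 CPM in precursor-like, 2583 CPM in committed-like and 270 CPM in mature-like whole cells. ZEB2, which promotes myelination, had 391, 1269 and 765 CPM in the same order. These levels are sums over libraries, and the stages come from different libraries in unequal parts. Within E60_1 alone both were also highest in committed-like cells, with SOX6 at 1492, 2714 and 1807 CPM and ZEB2 at 541, 1435 and 1156 CPM. MYRF, the factor that switches on myelin genes and is here named after its values were seen, had 3.67, 161 and 163 CPM. OLIG3, the third OLIG gene, had 0 UMIs in all 3 stages.

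Over 85 groups of cells of 1 library and 1 class, the pattern of each gene was compared with that of 14506 genes by Pearson correlation of log2(CPM + 1). These are descriptions, since groups of 1 library share its depth and free RNA. The genes most like OLIG1 were CMTM5 (r = 0.79), INKA2 (0.78), GPR37L1 (0.74), NKX2-2 (0.73) and SCRG1 (0.73). Those most like SOX10 were UGT8 (0.86), which makes a myelin lipid, DSCAM (0.80), BCAS1 (0.80), PCDH15 (0.80) and ATP10B (0.79). Those most like NKX2-2 were GAL3ST1 (0.82), which makes another myelin lipid, CMTM5 (0.77), OLIG1 (0.73), SCRG1 (0.72) and RTKN (0.70). OLIG1 and SOX10 were less alike, with r = 0.48, than SOX10 and NKX2-2, with r = 0.56. OLIG2 was too rarely counted to be compared.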

How the data were processed

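Single cells and nuclei of the pig MEC were captured with the 10X Chromium platform. The authors aligned the reads to Sscrofa11.1 with Cell Ranger, counted introns, and deposited 1 table of raw UMI counts per library, used here without change. The 4 genes, the markers, the lists of transcription factors and hedgehog genes and the tests were chosen with earlier results of these data known. A list of other named genes held those past the threshold or the 4 highest in oligodendroglia-like cells, and for each member the 5 genes of most alike pattern (at least 20 cells a group, 10 UMIs and 20 CPM).

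Counts were scaled to 10000 UMIs per cell and log-transformed, and 3000 variable genes without 137 held-out genes (members, lists and markers) gave 50 principal components. Libraries were merged by mutual nearest neighbours, and clusters were found at a resolution of 1.6 and, for oligodendroglia, 1.2 (scanpy 1.11.5, igraph 0.11.9), after the study's settings. This gave 49 clusters and, for the oligodendroglia, 10 subclusters. Each took the name of the marker list that scored highest, if at least 3 markers of that list passed. A marker passed if detected in at least 5% of the cells, at 1.5 times the level over all cells clustered. A name was dropped where the leading genes held more markers of another class, or where UMIs were low and no marker led. Names may differ from those of the study. Genes of photoreceptors were added, after the data were seen, to the lists that could speak against a name. The 1077 cells called as doublets (3.82%, of which 59 were oligodendroglia-like) were kept. Levels are CPM over summed cells, with exact Poisson 95% intervals, shares use exact Clopper-Pearson intervals, and a count of 0 was set to 3 UMIs in ratios. Shares were compared after thinning to 1000 UMIs, which left out 1328 mature-like and 71 precursor-like adult nuclei and 2 precursor-like E70 nuclei.

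Counts summed per library were tested with edgeR 4.0.16 (R 4.3.3, TMM, quasi-likelihood, genes kept by filterByExpr, Benjamini-Hochberg), without a block, since same-numbered libraries of E60 and E70 come from different animals. DESeq2 1.42.0 was an alternative. The labels name brains per library but no shared animals, so p-values measure the spread between these libraries. The fit was tested on simulated data with 4-fold changes. It recovered 35% of the changed genes in whole libraries, with 2 false calls, and 63% in oligodendroglia-like cells, with 6. Changes of that size could therefore be missed. Sequences and positions were taken from RefSeq, and the sequence of NKX2-2 is not reported here.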

Additional observations from a re-analysis of the deposited data

How the results depend on the processing

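No setting made OLIG1 or SOX10 pass an adjusted p of 0.05, and NKX2-2 passed in 1, whole libraries without E60_3, with a log2 fold change of -2.37 (edgeR, adjusted p = 0.04996, and 0.828 at most over its alternatives). The count of all genes called was less stable. In whole libraries it went from 0 to 2833 with DESeq2 and lay between 0 and 5902 when 1 library was left out (5902 without E60_3, 1570 without E70_3). In oligodendroglia-like cells it went from 0 to 194 with DESeq2, to 735 without a filter, and lay between 0 and 790 when 1 library was left out (790 without E70_3). The causes were not tested.

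The replicate numbers do not pair the libraries, as the correlations of deviations were -0.171, 0.0322 and -0.126 in whole libraries and -0.111, 0.0802 and -0.00374 in oligodendroglia-like cells. With the replicate number as a block, 0 genes were called in whole libraries and 42 in oligodendroglia-like cells, none of them a member. In whole libraries, as in oligodendroglia-like cells, 1 of the 3 E60 libraries correlated best with the E70 library of its own number.

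Some directions turned. The log2 fold change of OLIG1 became 0.0024 in whole libraries without E60_1, and it lay between -0.91 and 0.0024 when 1 library was left out. In oligodendroglia-like cells that of OLIG1 became 0.0029 without E60_1, 0.017 without merging of libraries (where E70_3 alone remained at E70 and was taken to vary like the others) and 0.20 in named stages only, a setting chosen after seeing the data, with a range of -0.47 to 0.0029 when 1 library was left out. That of SOX10 became -0.16 without a filter, -0.21 without E60_3, -0.53 without E70_2 and -0.34 without merging, with a range of -0.53 to 0.32 when 1 library was left out. In precursor-like cells the log2 ratio of SOX10 was -0.45 without merging and 0.13 with libraries of at least 3 cells, also chosen afterwards, where edgeR called 0 of 2737 genes (379 at an unadjusted p under 0.05). Leaving out 1 library, the ratios lay between -0.28 and 0.15 for OLIG1, -0.31 and -0.06 for SOX10 and -0.21 and 0.46 for NKX2-2. DESeq2, the filter and the block were not run for precursor-like cells, which had no test in libraries of at least 10 cells.

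Of 132 alternatives for shares of cells, 111 moved them by less than 1 SD. With whole cells only, a setting chosen after seeing the data, OLIG1 was in 42.5% of precursor-like and 38.0% of mature-like cells. In precursor-like cells, thinning to 2000 UMIs gave 14.9% for SOX10, 15.4% for NKX2-2 and 0.192% for OLIG2, and no thinning gave 66.3% for OLIG1, 27.0%, 23.3% and 0.485%. In committed-like cells, 2000 UMIs gave 2.24% for OLIG1, 24.8% for SOX10 and 37.6% for NKX2-2, and no thinning gave 2.99%, 41.2% and 59.4%. In mature-like cells, 2000 UMIs gave 17.0% for SOX10, and no thinning gave 34.4%, with 25.0% for NKX2-2 and 0.169% for OLIG2. Without merging, the committed-like share of OLIG1 was 5.69%. Single cells were also sorted by UMIs of stage markers, with 2 UMIs for mature and precursor cells but 1 UMI of GPR17 for committed cells. By this rule 806 cells were committed, of which 421 were oligodendroglia-like and 40 were committed-like by clustering. These committed cells had OLIG1 in 15.8%, NKX2-2 in 3.12% and OLIG2 in 0.0657%. The low OLIG1 and high NKX2-2 of committed-like cells therefore rest on clusters, with 2 libraries.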
